A study of Mus musculus with 66 samples.

Results

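Blood gene expression was compared between young C57BL/6 mice that had been kept in 75% oxygen (hyperoxia) from postnatal day 7 and mice kept in 21% oxygen (normoxia), with blood taken on postnatal day 28 (P28), long after the high oxygen had ended. The comparison rests on 21 arrays of the 66 in the series, chosen by their age and oxygen labels: 10 of P28 hyperoxia and 11 of P28 normoxia. Per the methods of the study, pups in hyperoxia returned to room air on P12, each litter was assigned as a whole to 1 oxygen condition, and mononuclear cells were separated from heart blood on a density gradient. The labels do not tie pups to litters, so the p-values treat every mouse as independent and do not account for litter. Each array carried the RNA of 1 mouse beside a commercial reference RNA of mixed mouse sources, which served as a common standard. All mice were of the wild-type strain, and both groups breathed the same air between P12 and P28.

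This treatment is the oxygen-induced retinopathy model. High oxygen stops and prunes the growing vessels of the newborn retina, the return to room air leaves that tissue short of oxygen, and new vessels then grow in excess and later regress. Circulating mononuclear cells are lymphocytes and monocytes, and such preparations also carry platelets, red cell precursors and reticulocytes, whose RNA is dominated by globins. In the newborn, oxygen also acts on red cell production through erythropoietin, a hormone made by the kidney when oxygen is low, and on all cells through the hypoxia-inducible factors.

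The value used throughout is the log2 ratio of Cy3 over Cy5 of a probe on an array. The labels name Cy5 as the dye of the blood RNA, but the intensities go against that. Hba-a1, an alpha globin gene, had a log2 intensity between 17.8 and 18.1 in Cy3 and between 10.3 and 12.0 in Cy5 over the 21 arrays. The Y-linked gene Eif2s3y, which only males express, spanned 5.74 to 8.51 in Cy3 but 5.89 to 6.15 in Cy5. Cy3 was therefore read as blood, and if the labels were right, every direction given here would turn round. By the scanner's flag, 4 of 10 hyperoxia arrays and 5 of 11 normoxia arrays had Eif2s3y well above background, so both groups held mice of both sexes, which the labels do not give.

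The share of probes well above background ranged from 38.6% to 52.3% in hyperoxia (median 46.3%) and from 36% to 49.1% in normoxia without replicate 9, which stood at 51.5%. Normoxia replicate 9 stood apart from the other normoxia arrays in several ways. On the first principal component, which held 38% of the variance, it had a score of 59.0, while the other normoxia arrays lay between -52.6 and 2.51 and the hyperoxia arrays between -20.2 and 53.6. Its weight in a fit that weights arrays by their scatter was 0.271, against 0.652 or more for every other P28 array. The arrays lay on 9 slides, of which 6 held both P28 groups, with 1 or 2 arrays of each group per slide. For the genes described in full and for the gene lists, the number of these 6 slides with the same direction of difference is given. Genes of smallest p were chosen over these same arrays, so their slide counts describe them and are not a replication.

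The first question was whether any gene differed between the groups at P28. Testing was limited to the 27208 probes whose Cy3 signal stood well above background in a fraction of 0.5 or more of either group's arrays. With the moderated test of limma and Benjamini-Hochberg adjustment, 0 of them (0% called) passed an adjusted p of 0.05, and the smallest adjusted p was 0.242. There were 4765 probes with an unadjusted p under 0.05, of which 2494 were higher and 2271 lower in hyperoxia. The log2 difference was under 0.5 in size for 96.6% of probes, and its median over all probes was 0.011. The tested probes named 13447 genes, each represented below by its brightest probe, of which 11.1% had an unadjusted p under 0.05 and were higher in hyperoxia and 8.25% were lower. The groups overlapped in every one of these genes (0% without overlap).

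The count of 0 rested on a single array. Leaving out each of the 21 arrays in turn gave 0 calls in 20 cases, and 2965 calls, 1560 higher and 1405 lower in hyperoxia, without normoxia replicate 9. That array was singled out after these counts were seen, and its position beyond every hyperoxia array on the first component lies on the side away from the other normoxia arrays. Array weights, which keep it at a low weight, gave 4874 calls, 2711 higher and 2163 lower. Results are therefore given over all 21 arrays, and the count of called genes without this array is given for the genes and gene lists where it was above 0.

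**Figure D1:**
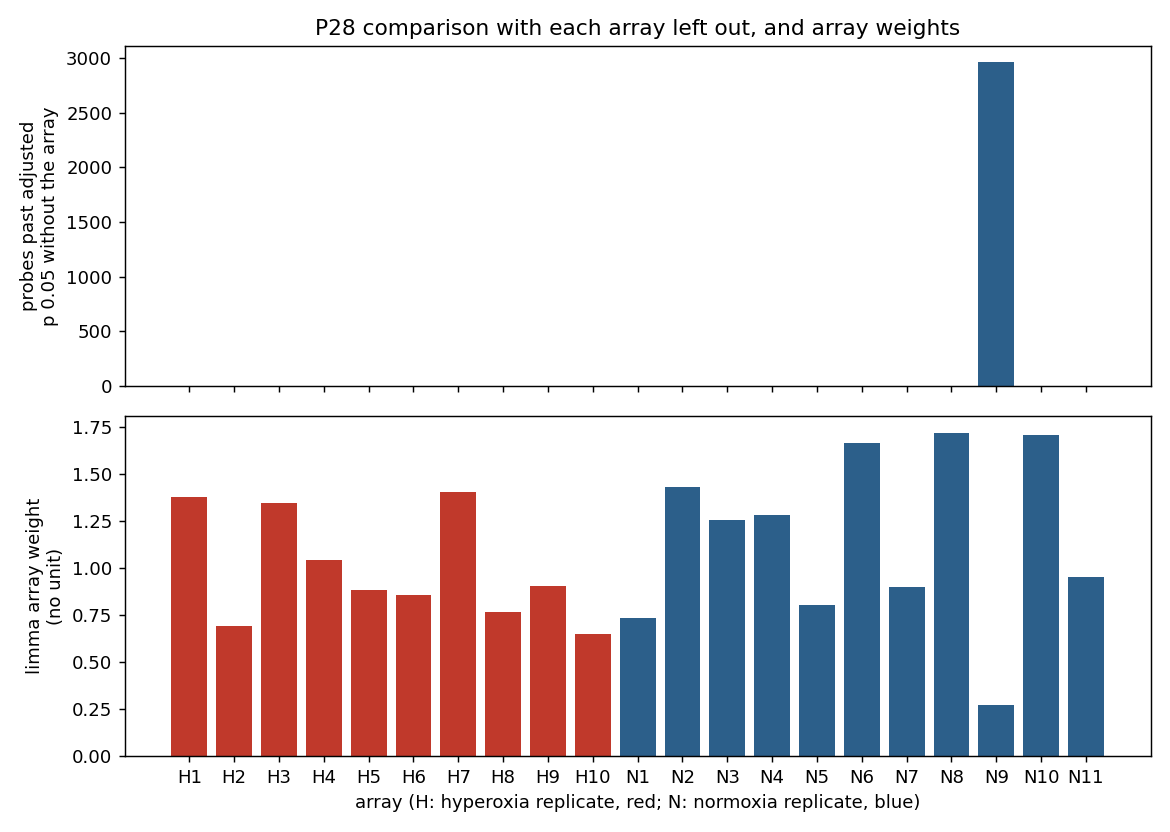
Number of probes past an adjusted p of 0.05 when each P28 array is left out (upper bars) and the limma weight of each array (lower bars, no unit), with hyperoxia arrays H1 to H10 in red and normoxia arrays N1 to N11 in blue. The count is 0 except without N9, where it is 2965, and N9 has the lowest weight, 0.271.

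No gene passed the test, so the 10 genes with the smallest unadjusted p in each direction are described. In the direction of higher values in hyperoxia, the smallest p belonged to Odf2, which encodes a protein of the centriole and of the sperm tail. Its log2 ratio ranged from -0.13 to 0.056 in hyperoxia (median 0.015) and from -0.29 to -0.049 in normoxia (median -0.24). The ranges overlapped only slightly, and without normoxia replicate 9 every hyperoxia array lay above every normoxia array. The difference was 0.20 ± 0.035 (SE), with an unadjusted p of 8.91e-06 and an adjusted p of 0.242, and the same direction on 6 of 6 slides. Odf2 was also the 1 probe called (adjusted p 0.0392) when no probe filter was applied.

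Ddit4 had the greatest difference among these 10 genes. It encodes an inhibitor of the growth regulator mTORC1 and is known to respond to hypoxia, glucocorticoids and DNA damage. In hyperoxia it ranged from -1.60 to 0.17 with a median of -1.05, and in normoxia from -2.47 to -1.12 with a median of -1.87. Every hyperoxia array lay above the normoxia median, with replicate 10 the highest, and normoxia replicate 9 lay among the lower normoxia arrays. The difference was 0.90 ± 0.18 (SE, adjusted p 0.243), and 5 of 6 slides had this direction.

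Rapgef1, an activator of the small GTPase Rap1, was between 0.32 and 0.85 in hyperoxia (median 0.56) and between -0.19 and 0.54 in normoxia (median 0.016), a difference of 0.46 ± 0.088 (SE). Cirbp, an RNA-binding protein induced by mild cold, was between -0.011 and 0.66 in hyperoxia (median 0.29) and between -0.47 and 0.45 in normoxia (median -0.20), a difference of 0.47 ± 0.095. In both genes the highest normoxia value came from replicate 9, and both had the same direction on 6 of 6 slides. The other genes of this direction were Fam107b (0.46), Rnf220, a ubiquitin ligase (0.42), Yeats4, a reader of acetylated histones (0.41), Emc6, of the membrane protein insertion complex of the endoplasmic reticulum (0.30), Eif1ad (0.32) and Lrrc47 (0.28), all as log2 differences.

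Among the 10 genes of smallest p that were lower in hyperoxia, Serpina1e had the greatest difference. It belongs to the alpha-1-antitrypsin family of protease inhibitors, whose near-identical members a probe may not separate. It ranged from 0.57 to 2.78 in hyperoxia (median 1.88) and from 2.26 to 3.84 in normoxia (median 2.73). The lower part of the hyperoxia range held arrays below every normoxia array, and the difference was -1.12 ± 0.26 (SE, adjusted p 0.243) with the same direction on 6 of 6 slides.

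Swi5, a partner in DNA repair by recombination, ranged from -1.30 to -0.78 in hyperoxia (median -1.08) and from -1.03 to -0.65 in normoxia (median -0.79). Dynll1, a light chain of the dynein motor, ranged from -0.42 to 0.33 in hyperoxia (median -0.023) and from 0.12 to 0.41 in normoxia (median 0.26). Their differences were -0.29 ± 0.058 and -0.30 ± 0.067 (SE), with the same direction on 5 of 6 slides for Swi5 and 6 of 6 for Dynll1. Of the 20 genes, Ddit4, Yeats4, Emc6, Lrrc47, Swi5 and Atp5k had their direction on 5 of 6 slides and the others on 6 of 6. The other genes of this direction were Gm3704 (-0.78), Gm12992 (-0.53), Atp5k, a small subunit of ATP synthase (-0.39), Golga1, a Golgi protein (-0.27), Rbm18 (-0.23), BC048507 (-0.21) and Sh3rf2 (-0.20). Centring each array on its median, which moved the median of all genes to 0.178, gave 0.011 for Swi5, 0.0036 for Dynll1, -0.011 for Rbm18, -0.017 for BC048507 and -0.087 for Atp5k, all below that median. The sizes also moved with the scanner software's signals. These gave -0.71 for Sh3rf2, -0.61 for Golga1 and 0.47 for Odf2, but 0.42 for Fam107b and -1.05 for Serpina1e. All 20 genes passed without normoxia replicate 9, with adjusted p-values between 0.0018 (Emc6) and 0.029 (Rbm18).

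**Figure D2:**
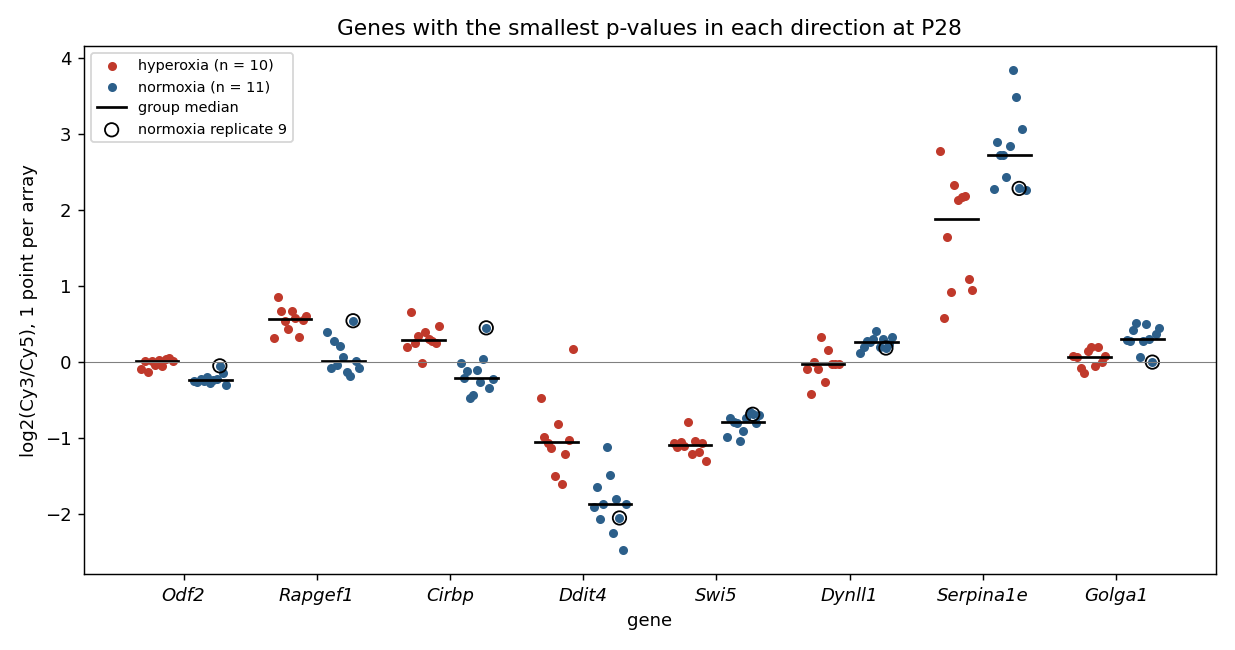
Log2(Cy3/Cy5) of 8 genes with small p-values at P28, 1 point per array (hyperoxia red, normoxia blue), with group medians as bars and normoxia replicate 9 ringed. In Rapgef1 and Cirbp the ringed array is the highest of its group and lies among the hyperoxia arrays, while in Ddit4 and Serpina1e it lies with the other normoxia arrays.

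Without normoxia replicate 9, 7.38% of genes were called higher and 5.26% lower in hyperoxia, and 6 genes (0.0446%) had no overlap between groups. These 6, all higher in hyperoxia, were Bloc1s4, Emc6, Fam107b, Lrrc47, Odf2 and Yeats4. Among the called genes, those of greatest change in the upward direction included a pair of non-coding RNA genes, Rnu3b1, a U3 small nucleolar RNA (1.49 ± 0.47, adjusted p 0.046), and Rnu2-10, a U2 small nuclear RNA of the spliceosome (0.88 ± 0.27, adjusted p 0.042). Over all 21 arrays Rnu3b1 ranged from -2.0 to 2.11 in hyperoxia and from -2.51 to 0.11 in normoxia. The hyperoxia arrays were spread more widely, with an SD of 1.48 against 0.71, and the groups overlapped. Ddit4 (0.88), Zfp622 (0.69) and Il2rb, a chain of the receptors for interleukins 2 and 15 on lymphocytes (0.68), completed the 5 genes.

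In the downward direction, the greatest changes without this array were those of Aqp2, the water channel of the kidney collecting duct (-1.66 ± 0.44, adjusted p 0.028), Fbxl19 (-1.54), Lig1, a DNA ligase of replication (-1.53), Retnlg, a resistin-like gene typical of neutrophils (-1.52 ± 0.40, adjusted p 0.027), and Gm6936 (-1.49). Aqp2 ranged over all arrays from 1.80 to 5.25 in hyperoxia (median 4.22) and from 2.50 to 6.95 in normoxia (median 5.60). Il2rb had a log2 difference over all 21 arrays of 0.57 after loess but 0.10 with the scanner software's own signals.

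Gene lists were used to describe blood cell types and functions, with written lists of the markers of each cell type and the members of each pathway, which were chosen with earlier results of these data known. A list is described by its median log2 difference beside the median over all 13447 genes, 0.019, and by how many members had an unadjusted p under 0.05, to be read against 11.1% (higher) and 8.25% (lower) of all genes. Counts of members called without normoxia replicate 9 are to be read against 7.38% (higher) and 5.26% (lower), and list medians without it against 0.031 for all genes. Counts of members higher or lower are to be read against 7408 higher and 6039 lower of all genes. Markers of a cell type can vary together between mice, so such counts do not rest on independent genes. In bulk RNA, fewer cells of a type and less RNA per cell cannot be told apart. Values are also relative within the RNA of an array, so a lower part of some cell types and a higher part of others cannot be told apart. With the erythroid mean as a covariate, 1277 probes had an unadjusted p under 0.05 in limma, against 4765 without it. Genes named in these lists are the first as written, and any others were chosen after their values were seen.

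The T cell list had the highest median, 0.29, with 21 of 24 genes higher in hyperoxia and 13 at an unadjusted p under 0.05, all higher. Cd3e, a signalling chain of the T cell receptor complex, ranged from 0.51 to 1.55 in hyperoxia (median 1.19) and from 0.40 to 1.16 in normoxia (median 0.77), a difference of 0.38 ± 0.11 (SE). Cd3g, another chain of that complex, differed by 0.30 ± 0.13 and Cd8a, the co-receptor of cytotoxic T cells, by 0.23 ± 0.16. Cd4, the co-receptor of helper T cells, did not follow, with medians of 0.95 in hyperoxia and 0.99 in normoxia and a difference of 0.019 ± 0.088. Others of the list with small p were Ccr7, a homing receptor for lymph nodes (0.42 ± 0.12), Lef1, a transcription factor (0.30 ± 0.099), and Cd28, the co-stimulatory receptor (0.36 ± 0.095).

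The mean of the T cell list per array ranged from 1.64 to 2.29 in hyperoxia (median 2.08) and from 1.47 to 2.04 in normoxia (median 1.73). The groups overlapped, and 6 of 6 slides had the list median higher in hyperoxia. Without normoxia replicate 9 the list median was 0.33 and 8 genes were called higher, among them Cd3e (adjusted p 0.027), Cd28 (0.015) and Ccr7 (0.046).

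B cell markers had a median of 0.23, with 7 of 20 genes at an unadjusted p under 0.05, all higher. Cd79a, a signalling chain of the B cell receptor, ranged from 0.87 to 2.10 in hyperoxia (median 1.54) and from 0.89 to 1.52 in normoxia (median 1.32). Its partner Cd79b differed by 0.11 ± 0.11 and the surface antigen Ms4a1 by 0.25 ± 0.19. Pou2af1, a B cell transcriptional co-activator, had the smallest p of this list (0.39 ± 0.11) and was called without normoxia replicate 9 (adjusted p 0.023), as was Cd72 (0.028). With the software's signals the list median was 0.034, below the 0.099 of all genes, so its position depends on the scaling.

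Natural killer and cytotoxic cell markers had a median of 0.24, with 15 of 16 genes higher but 2 at an unadjusted p under 0.05. Nkg7, a granule protein, differed by 0.37 ± 0.17, Gzma, a granule protease, by 0.52 ± 0.29, Klrd1, a receptor chain, by 0.26 ± 0.20, and Ncr1, an activating receptor, by 0.072 ± 0.12. Per array the mean of this list ran from 1.30 to 2.20 in hyperoxia and from 0.94 to 1.58 in normoxia without replicate 9, which was the highest of all 21 arrays at 2.63. Without it the median was 0.35 and 3 genes were called higher.

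Monocyte markers had a median of 0.14, with 2 of 20 genes at an unadjusted p under 0.05, both higher. Cx3cr1, the fractalkine receptor of patrolling monocytes, had medians of 2.94 in hyperoxia and 2.06 in normoxia with wide ranges of 1.59 to 3.70 and 1.34 to 3.56, a difference of 0.56 ± 0.28. Ccr2, the receptor that guides inflammatory monocytes out of the marrow, differed by 0.35 ± 0.24, Ly6c2 by 0.24 ± 0.16 and Csf1r, the receptor for the monocyte growth factor, by 0.14 ± 0.22. Ace was the 1 monocyte gene of 20 called higher without normoxia replicate 9 (adjusted p 0.045), a share below that of all genes. Dendritic cell markers had a median of 0.10, with Flt3, a growth factor receptor, at 0.15 ± 0.081 and Itgax at 0.24 ± 0.18. Of the 11 genes, Irf8, a transcription factor, was higher at an unadjusted p under 0.05 (0.23 ± 0.092) and Zbtb46, another, lower (-1.08 ± 0.40), and Zbtb46 was called lower without normoxia replicate 9 (adjusted p 0.029).

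Neutrophil genes lay on the other side, with a median of -0.21 and 5 of 24 at an unadjusted p under 0.05, all lower. The list median was -0.56 with the software's signals and -0.13 under median centring, where those of all genes were 0.099 and 0.178. S100a8, a subunit of the calcium-binding protein calprotectin, ranged from 1.77 to 4.48 in hyperoxia (median 3.23) and from 2.90 to 6.81 in normoxia (median 4.13). The difference was -0.91 ± 0.41 for S100a8 and -0.71 ± 0.33 for its partner S100a9. Elane, neutrophil elastase, differed by -0.48 ± 0.18, and Mpo, myeloperoxidase, by 0.066 ± 0.044 at a level near background, well above it on 9 of 21 arrays. Retnlg, already described, had a difference of -1.40 ± 0.40 over all arrays and was lower on 6 of 6 slides, and it and Elane (adjusted p 0.037) were the 2 genes called lower without normoxia replicate 9. Neutrophils are largely removed by the density gradient, and the separation was not measured per sample in the files used here.

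The small list of eosinophil, basophil and mast cell genes had a median of 0.047 over 8 genes. Ccr3, the eotaxin receptor of eosinophils, ranged from 0.079 to 0.63 in hyperoxia (median 0.38) and from 0.37 to 1.18 in normoxia (median 0.72), a difference of -0.37 ± 0.097 (unadjusted p 0.001), and was called without normoxia replicate 9 (adjusted p 0.02). Siglecf, another eosinophil receptor, differed by -0.16 ± 0.079, while the basophil protease Mcpt8 differed by 0.14 ± 0.079 and Cpa3, a mast cell protease, by 0.039 ± 0.17.

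Erythroid genes had the lowest median of the lists, -0.50, with 40 of 44 genes lower in hyperoxia and 10 at an unadjusted p under 0.05, all lower. Hba-a1 ranged from 4.66 to 7.50 in hyperoxia (median 5.96) and from 4.44 to 7.92 in normoxia (median 6.62), a difference of -0.70 ± 0.36 (SE). Its lowest normoxia value was that of replicate 9. This difference of ratios was hardly seen in the blood channel, where Hba-a1 was the brightest probe on every array and had a log2 Cy3 intensity of 17.92 ± 0.10 in hyperoxia and 17.97 ± 0.12 in normoxia (SD), beside 11.20 ± 0.49 and 10.95 ± 0.36 in Cy5. The beta globin gene Hbb-b1 differed by -0.63 ± 0.32, Alas2, the first enzyme of haem synthesis in red cells, by -0.56 ± 0.34, and Slc4a1, the anion exchanger of the red cell membrane, by -0.35 ± 0.23. Car1, a carbonic anhydrase, had a smaller but steadier difference of -0.21 ± 0.069 with the same direction on 6 of 6 slides.

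Per array, the mean of the erythroid list ranged from 3.00 to 4.26 in hyperoxia (median 3.51) and from 2.47 to 4.60 in normoxia (median 4.11). Normoxia replicate 9 was the lowest of all 21 arrays, and the other normoxia arrays lay between 3.63 and 4.60. Without it the list median was -0.68 and 19 genes were called lower, among them Hbb-b1 (adjusted p 0.042) and Car1 (0.029) but not Hba-a1 (0.057) or Alas2 (0.10). The size of the shift moved with the scaling, from -0.50 after loess to -0.20 under median centring, where the median of all genes was 0.178, and to -0.26 with Cy3 alone, where it was 0.058. With Cy3 alone Hbb-b1 differed by -0.25 and Alas2 by -0.32.

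**Figure D3:**
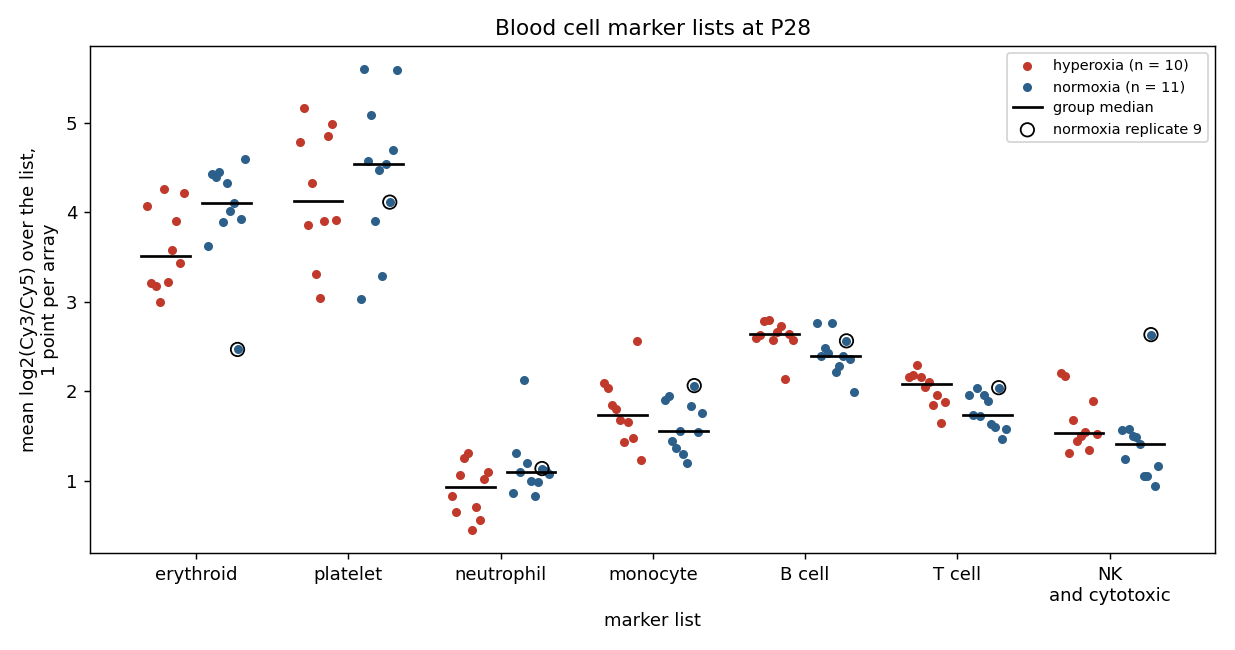
Mean log2(Cy3/Cy5) over 7 blood cell marker lists, 1 point per array (hyperoxia red, normoxia blue), with group medians as bars and normoxia replicate 9 ringed. That array is the lowest for erythroid genes (2.47) and the highest for natural killer and cytotoxic genes (2.63), and the T cell medians are 2.08 in hyperoxia and 1.73 in normoxia.

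As an example of a match to an erythroid motif, the Alas2 promoter is shown, from RefSeq on GRCm38.p6. Only the letters AGATAA were searched, and other forms of the GATA factor motif were not counted. The Hba-a1 promoter had 0 matches to these letters, which does not show that it lacks such a motif. The sequence shown is the 250 bases before the start of Alas2, chrX:150547167-150547416 on the plus strand. Capitals mark the 1 match to AGATAA, which is found here as its reverse complement TTATCT.
Alas2: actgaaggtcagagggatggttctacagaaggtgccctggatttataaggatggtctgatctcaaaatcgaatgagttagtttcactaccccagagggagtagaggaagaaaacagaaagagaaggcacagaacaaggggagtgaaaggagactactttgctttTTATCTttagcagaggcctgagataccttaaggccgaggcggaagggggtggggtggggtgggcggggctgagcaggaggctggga
On either strand, AGATAA occurred in 9 of the 38 promoters (23.7%) that RefSeq gives for 29 of the 44 erythroid genes, and in 9.99% of all 32851 promoters of this length. GATA1 is the factor that drives red cell genes, and a match of letters is not a measured site.

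Platelet genes were lower in all 20 members, with a median of -0.24, but 0 had an unadjusted p under 0.05 with limma, and 0 were called without normoxia replicate 9. Pf4, a chemokine of platelet granules, ranged from 3.66 to 5.57 in hyperoxia (median 4.66) and from 3.87 to 6.22 in normoxia (median 5.28), a difference of -0.47 ± 0.28. Ppbp, another granule chemokine, differed by -0.42 ± 0.33, Gp9 by -0.36 ± 0.31 and the integrin chain Itga2b by -0.056 ± 0.42. Relative to the median of all genes, the platelet list stood at -0.15 under median centring and at -0.55 with the software's signals.

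Genes that mark other tissues were little measured. Of the lists of 12 genes each, 6 endothelial, 5 muscle and 5 photoreceptor genes passed the filter, with medians of -0.035, -0.071 and -0.048. The endothelial genes Pecam1 (0.089 ± 0.21), Kdr, the main receptor for VEGF (0.017 ± 0.090), Esam (-0.087 ± 0.30) and Plvap (-0.18 ± 0.24) had differences within their error, and Pecam1 and Esam are also made by platelets. Among the muscle genes were Myh6 (-0.034), Actc1 (-0.13), Tnnt2 (-0.071) and Nppa (-0.027), and the fifth, Acta1, an actin of skeletal muscle (-0.22 ± 0.088), was the 1 at an unadjusted p under 0.05 and was called lower without normoxia replicate 9 (adjusted p 0.041). Crx, a photoreceptor transcription factor, had the greatest difference of the photoreceptor list at -0.30 ± 0.12 and was called lower without normoxia replicate 9 (adjusted p 0.045). Plasma cell genes had a median of 0.037 over 9 genes (0.097 without normoxia replicate 9), with Jchain at -0.015 ± 0.20, Xbp1 at 0.037 ± 0.16, Prdm1 at -0.064 ± 0.086 and Sdc1 at -0.12 ± 0.096. Progenitor genes had a median of -0.013 over 8 genes (0.0066 without normoxia replicate 9), with Kit at 0.042, Cd34 at -0.15, Meis1 at -0.069 and Hoxa9 at -0.16. Myb (0.36 ± 0.16) was higher and Lmo2 (-0.69 ± 0.30) lower at an unadjusted p under 0.05, and Lmo2 was called lower without normoxia replicate 9 (adjusted p 0.021).

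Among genes of antigen presentation, MHC class II genes had a median of 0.24, with 5 higher and 1 lower of 10 at an unadjusted p under 0.05. H2-Aa, an alpha chain, ranged from 3.36 to 4.92 in hyperoxia (median 4.20) and from 3.17 to 4.19 in normoxia (median 3.87), a difference of 0.37 ± 0.16. Its partner chain H2-Ab1 went the other way, with medians of 3.83 and 4.48 and a difference of -0.48 ± 0.22, as did H2-Eb1 (-0.30 ± 0.18), while Cd74, the invariant chain, stood at 0.10 ± 0.12. With the software's signals the median of this list turned to -0.27, so it has no settled direction. MHC class I genes had a median of 0.18, with 5 of 12 at an unadjusted p under 0.05, all higher. Tap1 (0.24 ± 0.10) and Tap2 (0.36 ± 0.12), the peptide transporter, were among these, with H2-K1 at 0.11 ± 0.098, H2-D1 at 0.18 ± 0.092 and B2m, the light chain, at -0.25 ± 0.19. In class I 4 genes were called higher without normoxia replicate 9, and in class II 2 higher and 1 lower.

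Interferon response genes had a median of 0.0085, beside 0.019 for all genes, with 3 of 30 at an unadjusted p under 0.05, all lower. Isg15, a ubiquitin-like antiviral protein, ranged from 3.66 to 5.45 in hyperoxia (median 4.35) and from 2.97 to 5.97 in normoxia (median 5.41), a difference of -0.70 ± 0.32. Irf7, the amplifier of the type I response, differed by -0.67 ± 0.25 and Ifit1 by -0.48 ± 0.17. Leaving out normoxia replicate 9 gave a list median of 0.035, beside 0.031 for all genes. Isg15 (adjusted p 0.028), Irf7 (0.02), Ifit1 (0.023) and Rsad2 (0.045) were then called lower.

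Inflammation genes had a median of 0.093, with 5 of 21 at an unadjusted p under 0.05, all higher. Tnfaip3, the A20 brake on NF-kB signalling, ranged from 2.30 to 3.83 in hyperoxia (median 3.1) and from 1.75 to 3.32 in normoxia (median 2.45). Its difference was 0.64 ± 0.19 with 6 of 6 slides in this direction. Without normoxia replicate 9, which had the highest list mean of its group (0.68, against 0.35 or less), the list median was 0.19 and 4 genes were called higher. Nfkb1 (0.27), Nfkb2 (0.26), Bcl3 (0.33) and Icam1 (0.11) were the others, and the inhibitor Nfkbia stood at 0.30 ± 0.18. The cytokine genes Tnf and Il1b stood at -0.10 ± 0.051 and -0.21 ± 0.24.

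Antioxidant genes had a median of -0.064, with 1 higher and 4 lower of 27 at an unadjusted p under 0.05. Cat, the catalase gene, ranged from 4.84 to 6.71 in hyperoxia (median 5.77) and from 4.02 to 7.14 in normoxia (median 6.71), a difference of -0.72 ± 0.31. Gclm, of glutathione synthesis (-0.63), Gpx1, a glutathione peroxidase (-0.59), and Nqo1, a quinone reductase (-0.41 ± 0.16), were the other lower genes, and catalase and glutathione peroxidase are abundant in red cells. Hmox1, the haem-degrading enzyme, stood at -0.016 ± 0.17 and Gclc at 0.026 ± 0.14. There were 5 genes called lower without normoxia replicate 9. The erythroid list moved in the same direction. A fit with the erythroid mean as a covariate was run over all probes, but its values for these antioxidant genes are not given here. The cause of these differences was not tested.

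Hypoxia genes had a median of 0.035, with 7 of 30 at an unadjusted p under 0.05, all higher. Besides Ddit4 they included Egln1 (0.30 ± 0.091) and Egln2 (0.38 ± 0.11), oxygen-sensing enzymes that mark the hypoxia-inducible factors for breakdown. Egln2 ranged from 0.17 to 1.16 in hyperoxia (median 0.59) and from -0.094 to 0.56 in normoxia (median 0.11), with the same direction on 6 of 6 slides. Pdk1, which holds pyruvate back from the mitochondria, differed by 0.23 ± 0.11, the glucose transporter Slc2a1 by 0.15 ± 0.11 and Bnip3 by 0.060 ± 0.088. Vegfa, the main growth factor of new vessels, was on the other side at -0.26 ± 0.13, with medians of -2.62 in hyperoxia and -2.37 in normoxia. The list median was 0.064 without normoxia replicate 9, with 5 genes called higher.

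The promoter of Ddit4 is shown in the same way, since it was the hypoxia gene of greatest difference. It is chr10:59951771-59952020 on the minus strand of GRCm38.p6, with capitals on the 1 match to ACGTG, the core letters that hypoxia-inducible factors bind.
Ddit4: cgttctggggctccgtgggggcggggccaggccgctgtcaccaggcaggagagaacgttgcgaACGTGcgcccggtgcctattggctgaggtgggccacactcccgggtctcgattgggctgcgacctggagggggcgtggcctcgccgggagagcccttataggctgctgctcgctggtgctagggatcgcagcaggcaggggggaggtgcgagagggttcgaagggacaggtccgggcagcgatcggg
ACGTG on either strand (CACGT on the other) occurred in 22 of 41 promoters (53.7%) of 28 of the 30 hypoxia genes and in 16.6% of all promoters. This list was written from genes known as targets of those factors and from the factors and their regulators, such as Hif1a, Vhl and Egln2. The share therefore describes the list and not these mice.

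Angiogenic signalling genes had a median of -0.050 over 14 genes. Vegfb (-0.15 ± 0.079) stood on the side of Vegfa, and the VEGF receptor Flt1 differed by -0.034 ± 0.12. Cxcr4, the receptor that holds leukocytes and progenitors in the marrow, was the 1 gene of the list at an unadjusted p under 0.05, ranging from 0.83 to 1.5 in hyperoxia (median 1.05) and from 0.59 to 1.03 in normoxia (median 0.76). The difference was 0.35 ± 0.087 (unadjusted p 0.0006) on 6 of 6 slides, and Cxcr4 was called without normoxia replicate 9 (adjusted p 0.019).

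Ribosomal protein genes showed many small differences, with a median of 0.13, 50 of 57 genes higher in hyperoxia and 23 higher against 2 lower at an unadjusted p under 0.05. Rpl3 ranged from -0.38 to 0.042 in hyperoxia (median -0.24) and from -0.81 to 0.052 in normoxia (median -0.60), a difference of 0.28 ± 0.087. Rps6 (0.16 ± 0.050), Rpl5 (0.28 ± 0.093) and Rps3 (0.23 ± 0.072) were similar, whereas Rps15 stood at -0.69. Without normoxia replicate 9, 15 were called higher and 1 lower. With the software's signals the list median was 0.061, below that of all genes.

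Genes of RNA splicing had a median of 0.19, with 11 of 30 at an unadjusted p under 0.05, all higher, and 7 called higher without normoxia replicate 9. The heterogeneous nuclear ribonucleoprotein genes Hnrnpa1 (0.36 ± 0.15) and Hnrnpd (0.38 ± 0.11) were among them, and Srsf1 (0.15 ± 0.11), Sf3b1 (0.22 ± 0.16) and U2af1 (0.17 ± 0.10) were not. Proteasome genes had a median of 0.18, with 9 higher and 2 lower of 31. The core subunit gene Psmb5 (0.24 ± 0.094) and the regulatory particle genes Psmc4 (0.26 ± 0.089) and Psmd3 (0.32 ± 0.10) were higher, while Psmd4 (-0.57 ± 0.20) and Psmd8 (-0.19 ± 0.067) were lower. Psma1 stood at 0.26 ± 0.13 and Psmd1 at 0.19 ± 0.11. Of the proteasome genes 10 were called higher and 2 lower without normoxia replicate 9. That array had the lowest erythroid list mean of both groups, 2.47, and the highest splicing mean, 0.084. The other splicing means were -0.088 or less in normoxia and 0.045 or less in hyperoxia. That array also had the highest proteasome mean, -0.12, against -0.42 or less in other normoxia arrays and -0.27 or less in hyperoxia. Whether the splicing and proteasome lists followed the erythroid list was not tested.

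Oxidative phosphorylation genes had a median of 0.039, with 5 higher and 11 lower of 50 at an unadjusted p under 0.05. The share of higher genes was not above the 11.1% of all genes. The lower side held several small subunits of cytochrome oxidase, namely Cox6a1 (-0.59 ± 0.21), Cox7a2 (-0.56 ± 0.17) and Cox6c (-0.46 ± 0.16). The higher side held Ndufs3 of complex I (0.29 ± 0.097) and Sdhb (0.29) and Sdhd (0.27) of complex II. There were 8 genes called higher and 7 lower without normoxia replicate 9, with a median of 0.080. Of the first members, Ndufs1 stood at -0.20, Sdha at 0.20, Uqcrc1 at 0.16 and Cox4i1 at -0.021.

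Cell division genes had a median of -0.047, with 3 higher and 6 lower of 30 at an unadjusted p under 0.05. Ccna2, a cyclin of DNA replication and mitosis, ranged from -1.82 to 0.48 in hyperoxia (median -0.55) and from -1.38 to 0.83 in normoxia (median 0.26), a difference of -0.86 ± 0.27. Ccnb2 differed by -0.56 ± 0.16, Mki67 by -0.29 ± 0.17, Cdk1 by -0.20 ± 0.096 and Ccnb1 by -0.16 ± 0.12, and Top2a, another gene of dividing cells, by 0.10 ± 0.21. The median was -0.031 without normoxia replicate 9, with 2 genes called higher and 4 lower. In blood, dividing cells include red cell precursors.

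Targets of p53 had a median of 0.077 with 6 of 19 at an unadjusted p under 0.05, all higher, and the list was higher on 6 of 6 slides. It lay 0.15 above the median of all genes under median centring and 0.10 above it with the software's signals, and without normoxia replicate 9 there were 3 genes called higher and 1 lower. The genes of smallest p were the death genes Bbc3 (0.31 ± 0.091) and Bax (0.31 ± 0.12), while Cdkn1a (0.091 ± 0.19), Mdm2 (0.077 ± 0.11) and Ccng1 (0.025 ± 0.082) were within their error. The amino acid stress response had a median of 0.013, with Asns (0.063), Trib3 (-0.034), Atf5 (0.0097) and Atf4 (0.016) within their error and Sars, a tRNA synthetase, at 0.26 ± 0.083, and 2 genes were called higher without normoxia replicate 9. Clock genes had a median of 0.037 and 0 of 13 at an unadjusted p under 0.05, with a median of 0.071 without normoxia replicate 9 and Per1 at 0.39 ± 0.25, Arntl at 0.12 ± 0.063, Dbp at 0.037 ± 0.12 and Nr1d1 at -0.13 ± 0.093. Of the sex-linked list 4 X-linked genes were tested, with Kdm6a at 0.040, Kdm5c at -0.059, Eif2s3x at -0.10 and Ddx3x at 0.23.

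**Figure D4:**
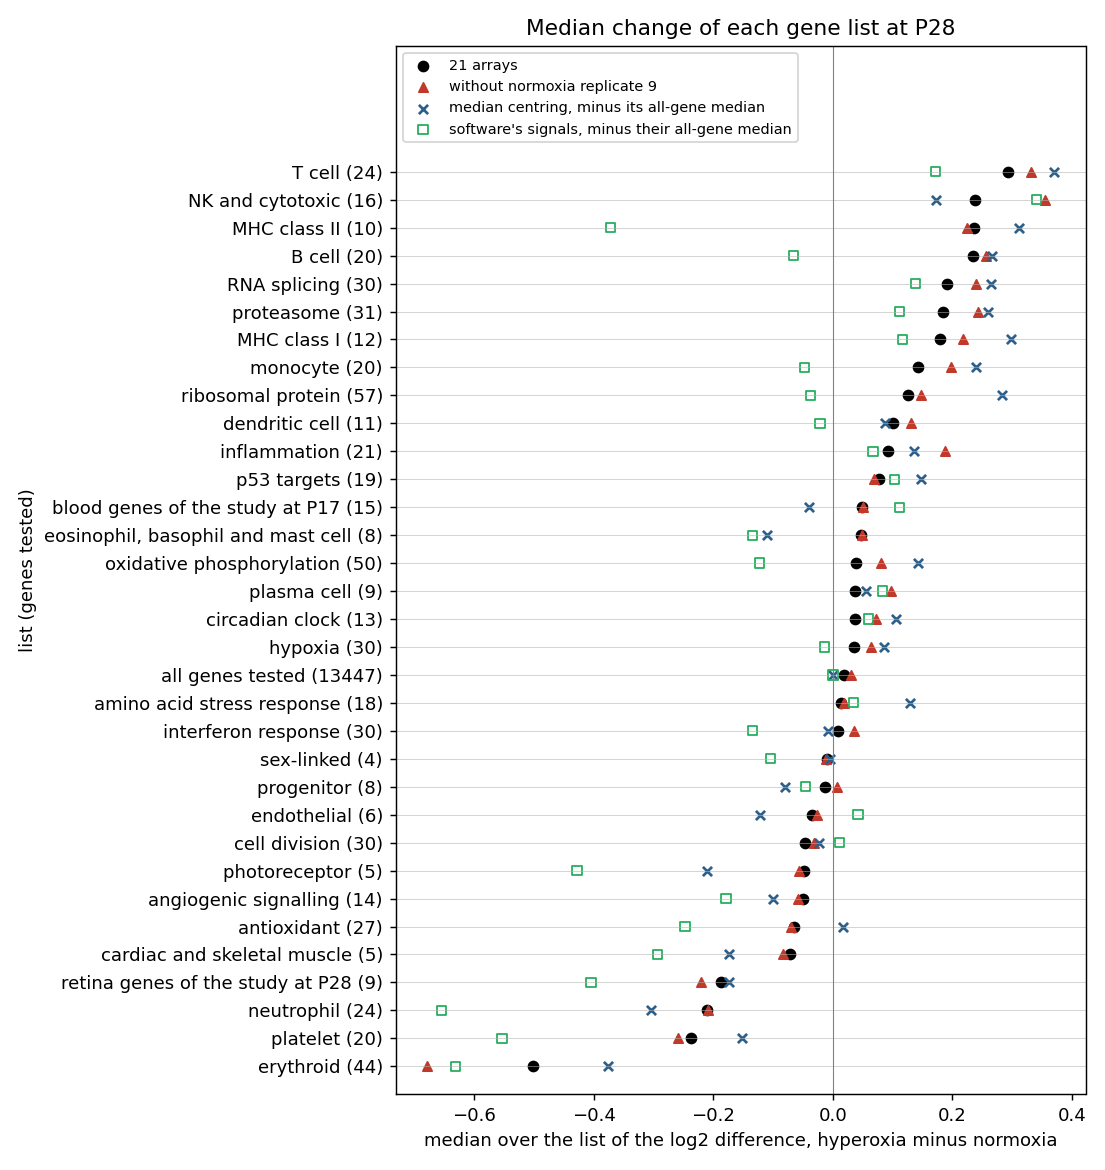
Median log2 difference (hyperoxia minus normoxia) of each gene list, with the number of genes tested in brackets, over 21 arrays (black), without normoxia replicate 9 (red), and under median centring (blue) and the scanner software's signals (green), each of the last 2 minus its own median over all genes. Erythroid genes are lowest and T cell genes highest over 21 arrays, at -0.50 and 0.29, and MHC class II genes change side with the software's signals.

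Of the 6 slides with both groups, all 6 had the direction of the list median for the T cell and p53 lists. It held on 5 for the erythroid, B cell, monocyte, neutrophil, dendritic cell, MHC class I and II, hypoxia, oxidative phosphorylation, ribosomal protein, proteasome, angiogenic and splicing lists. It held on 4 for the cytotoxic, platelet, plasma cell, endothelial, muscle, inflammation, antioxidant, cell division, sex-linked and study's P17 blood lists. The interferon, amino acid stress, clock, progenitor, photoreceptor and study's retina lists had it on 3 and the eosinophil list on 2.

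The side on which a list lay depended on the scaling for several lists. Beside the median of all genes, those of the B cell, monocyte, dendritic cell, eosinophil, MHC class II, ribosomal protein, hypoxia and oxidative phosphorylation lists lay above it after loess and below it with the software's signals. The cell division and endothelial lists went the opposite way, the amino acid stress list lay below it after loess and above it under both other scalings, and the antioxidant list lay above it under median centring (0.017 relative to all genes). The erythroid, neutrophil and platelet lists lay below, and the T cell, cytotoxic, MHC class I, splicing and proteasome lists above, under all 3 scalings.

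A pair of lists came from the study itself. Each mixes genes that the study gave as higher and as lower, so a list median cannot be set against its directions. In retina at P28 the study gave Bcl3, C4b, Lad1 and Pcolce as higher and Crabp1 as lower. In blood at P17 it gave Trp53 and Taf4 as higher and Tbc1d17, Deptor, Serpina11 and Gm4013 as lower. Of 13 genes that the study listed in retina at P28, 9 were measured in blood with a median of -0.19. Bcl3, an NF-kB co-factor, ranged from 0.96 to 1.72 in hyperoxia (median 1.46) and from 0.56 to 1.63 in normoxia (median 1.07), a difference of 0.33 ± 0.13, and Crabp1, a retinoic acid carrier, differed by -0.44. Pcolce (-0.36 ± 0.19), Lad1 (0.059 ± 0.050) and the complement gene C4b (-0.72 ± 0.83) had an unadjusted p over 0.05. Of 18 genes taken from those the study names for blood at P17, which are not all of them, 15 were measured here with a median of 0.048 (below the median of all genes under median centring), and 2 had an unadjusted p under 0.05, Gm4013 (-0.36) and Serpina11 (-0.22). Trp53 differed by 0.051 ± 0.10, Taf4 by 0.18 ± 0.11, Tbc1d17 by 0.16 ± 0.097 and Deptor by -0.056 ± 0.054. The blood list was chosen by the study on other arrays of this series, at P17, and neither list was called in any member over all 21 arrays, while Bcl3 (adjusted p 0.045) and Gm4013 (0.029) were called without normoxia replicate 9.

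Differences between mice within a group were far larger than differences between groups for another set of genes. The 6 genes with the greatest spread within groups were C4b (SD 2.01), Retnla (1.80), Cd5l (1.79), Saa3 (1.76), Prg4 (1.75) and Fn1 (1.72), all on the log2 scale. Retnla and Cd5l are best known from resident macrophages of tissues, C4b is a complement gene, Saa3 an acute phase gene, Prg4 a lubricating glycoprotein and Fn1 fibronectin. Prg4 ranged from 0.26 to 5.04 in hyperoxia (median 2.88) and from 0.34 to 5.33 in normoxia (median 3.73), so the groups covered the same span. Cd5l ranged from -0.013 to 4.96 in hyperoxia and from 0.13 to 5.20 in normoxia.

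Other genes known from resident macrophages, picked after this spread was seen and so only a description, varied in the same mice. Alox15, a lipoxygenase, ran from 0.072 to 4.10 in hyperoxia and from 0.21 to 3.94 in normoxia. C1qa, of complement C1q, ran from 0.12 to 3.70 and from -0.068 to 3.60, and the scavenger receptor Marco from 0.098 to 3.33 and from -0.038 to 3.85. Over 9 genes (Prg4, Cd5l, Retnla, Alox15, C1qa, Marco, Fn1, Saa3 and Ccl24), 9 arrays were among the 10 highest for every gene, 4 of them hyperoxia and 5 normoxia. Gata6, a transcription factor of body-cavity macrophages, ranged from -1.75 to 0.025 and from -1.34 to 0.32, well above background on 14 of 21 arrays. Of 16 such genes listed after the spread was seen, all 16 were lower in hyperoxia, 0 at an unadjusted p under 0.05 in limma, with a median of -0.28 that was 0.036 with slide as a block. The median effect of these genes was 0.55 at P17 and 0.20 at P12.

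**Figure D5:**
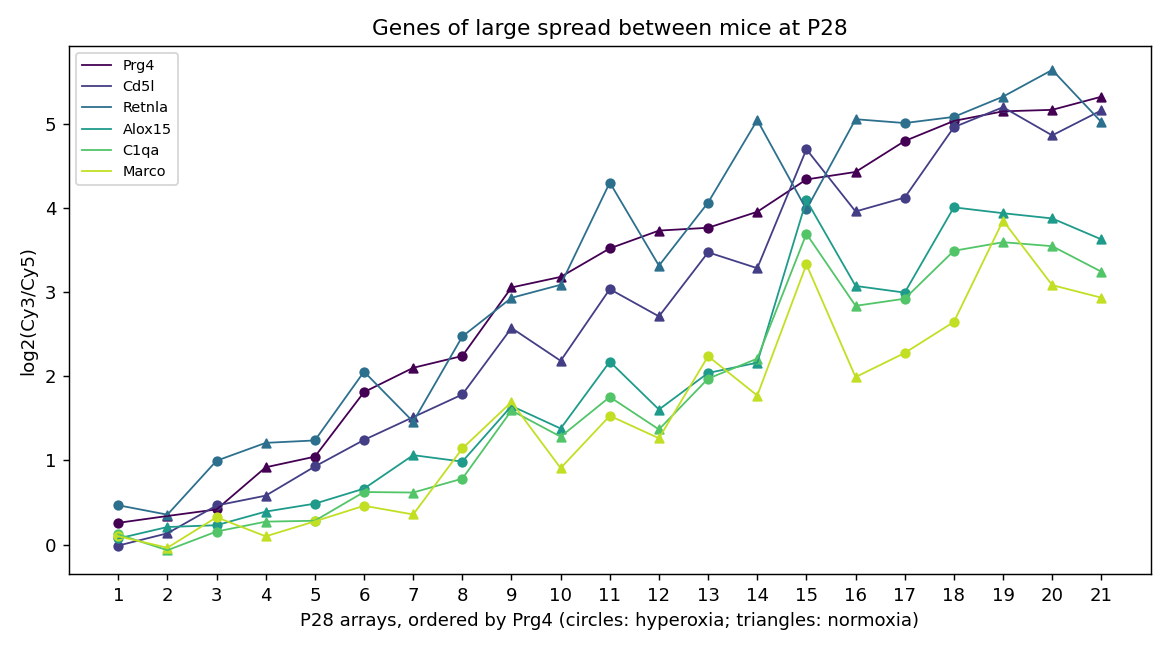
Log2(Cy3/Cy5) of 6 genes with a large spread between mice, with the 21 P28 arrays ordered by Prg4 from lowest to highest (circles for hyperoxia, triangles for normoxia, lines join the arrays of a gene). The 6 genes go up broadly in the same order of arrays, and both groups appear along the whole order.

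Whether the oxygen effect at P28 differed from that at the earlier ages was tested in 1 fit of all 66 arrays over 29327 probes. Against P17 and against P12, limma called 0 probes, although 2838 and 841 reached an unadjusted p under 0.05, with smallest adjusted p-values of 0.0623 and 0.633. The leading gene against P17 was Ccser2, with an oxygen effect of 0.27 ± 0.068 at P28 and -0.21 ± 0.064 at P17, a difference of 0.47 ± 0.094. Zbtb2 and Tgif1, both transcription regulators, followed with differences of 0.63 ± 0.14 and 0.98 ± 0.23. Against P12 the leading genes were Ubxn11 (0.40 ± 0.088), Sars (0.71 ± 0.16) and Dgat2, an enzyme of fat synthesis (0.58 ± 0.14). The count against P17 was 4399 with array weights and 3009 with the share of detected probes as a covariate, so its side of the threshold was not stable.

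For the genes described above, the effects at the 3 ages can be set side by side. Ddit4 had an oxygen effect of 0.90 at P28, -0.19 ± 0.25 at P17 and 0.026 ± 0.27 at P12 (log2, SE). The difference of its effects was 1.09 ± 0.37 against P17 (adjusted p 0.376) and 0.88 ± 0.38 against P12 (adjusted p 1.0), neither past the threshold. Cirbp had 0.47 at P28, 0.039 ± 0.15 at P17 and 0.78 ± 0.16 at P12. The erythroid list had median effects of -0.50 at P28, -0.44 at P17 and -0.87 at P12, and the T cell list 0.29, 0.040 and 0.36. The neutrophil list stood at -0.21 at P28, 0.00067 at P17 and -0.033 at P12, and no gene of these 3 lists had an effect at P28 that passed the test of its difference from either age.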

How the data were processed

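RNA of blood mononuclear cells was measured by the authors on Agilent 2-colour arrays with spot values from Feature Extraction 10.7.3.1. Per the headers, the deposited files give the median and background intensity of both channels, processed intensities and flags. The authors' matrix holds log2 ratios, whose direction is unstated. Over the P28 arrays it equalled log2(Cy3/Cy5) of the processed intensities of 56605 probes, with a greatest difference of 0 at 4 decimals.

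All fits used limma 3.58.1 in R 4.3.3. Background was corrected by normexp (offset 50) on median intensities, followed by loess within arrays, with control spots at zero weight. Outlier spots were dropped and replicate spots averaged. No spot other than controls was saturated. Of 56605 probes, 32994 were matched by accession to 22911 genes of RefSeq (GRCm38.p6). The groups were compared with lmFit and eBayes, Benjamini-Hochberg adjustment and a threshold of 0.05. Differences between ages were contrasts of all 6 groups. The number of arrays limits the precision.

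Named genes are the 10 of smallest p in each direction where none passed, the first 4 tested genes of each of 32 lists, the 6 of greatest spread within groups, the 3 of smallest p between ages, and, where leaving out an array gave over 100 calls, the 5 of greatest change in each direction. Some genes that this rule names are not reported here. Other list genes are named too, chosen after their values were seen. The members and lists were chosen with earlier results of these data known. Alternatives covered signals, scaling, single channels, the probe filter, slide, scan day, array weights, covariates and leaving out each array. The fit was tested on simulated data, and the outcome is not given here. RNA isolation is named differently in the labels and in the study's methods. Promoters came from RefSeq tables for GRCm38.p6, and coordinates of probes were not used.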

Additional observations from a re-analysis of the deposited data

Results flagged for a closer look

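Some hyperoxia arrays lay far from the others of their group of 10, with a gap to the nearest array over the critical share of the range in Dixon's test, which chance exceeds in about 1 group of 20. Of 52 values examined (20 genes and 32 list means), 4 exceeded it. In Swi5, hyperoxia replicate 5 (-0.78) was the highest, with a gap of 0.484 of the range. In the B cell list, replicate 8 had the lowest mean, 2.14, with a gap of 0.656 of the range. The same array had the lowest dendritic cell mean, 0.40, with a gap of 0.482, and the lowest share of probes well above background of the hyperoxia arrays, 38.6%, whose part in these values was not tested. In the inflammation list, replicate 9 had the highest mean, 1.01, with a gap of 0.6 of the range. Normoxia, with 11 arrays, was not examined in this way.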

How the results depend on the processing

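The count of 0 probes at P28 was also 0 with the software's signals, the authors' matrix, median centring, either channel alone, the stricter filter, either batch (slide, scan day) as a block, the arrays of scan day 1, robust eBayes, each covariate and all 6 groups in 1 fit. It was 1 without a probe filter and 4874 with array weights, and ranged from 0 to 2965 when 1 array was left out. The cause was not tested. Unadjusted p under 0.05 was reached by 1627 probes under median centring and 1277 with the erythroid mean as a covariate, against 4765. Cy5 alone is the reference, so its direction is not compared. For P28 minus P17 (0 probes), median centring gave 2, slide and scan day as blocks 1 each, array weights 4399 and detection share 3009. For P28 minus P12 limma gave 0 in every alternative run (841 probes had an unadjusted p under 0.05 as reported). All 20 leading genes kept their direction in every alternative but median centring, which gave 0.011 for Swi5 and 0.0036 for Dynll1. They passed with array weights and without normoxia replicate 9, and Odf2 without a probe filter. Median log2 over all probes moved from 0.011 to 0.096 with the software's signals and to 0.13 under median centring. No paired analysis was possible because the P28 groups share no mouse number in the titles. The P12 groups share 10, with no pairing given: 8 same-numbered pairs deviated together (correlation over 0.1), the range was -0.64 to 0.71, and 2 of 10 hyperoxia arrays correlated best with their own number. With this number as a replicate block, P28 minus P12 had 0 calls in limma (882 at an unadjusted p under 0.05). The differences within slides, the resident macrophage genes the overlap without normoxia replicate 9, the P12 block and the lists with Cy3 alone were chosen after seeing the data.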
